A study of Setaria viridis with 40 samples.

Results

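The 212 genes described here doubled in untreated *Setaria viridis* leaves between the start of sampling and 4 h later, while their mean levels in high light and in high temperature stayed near those of control leaves of the same hour. They were chosen by measured values. The rule used mean TPM over the 4 libraries of each condition. It asked for a log2 ratio of (TPM + 1) of at least 1 between ctrl_4h and ctrl_0h, a mean of at least 5 TPM at ctrl_4h, and an absolute log2 ratio of (TPM + 1) under 0.58 between each treatment and its control at 1, 2 and 4 h. Of 38239 genes listed, 1870 met the rise and 1305 of these also met the level. Of the 1305, 222 (17.0%) lay within the limit in all 6 treatment contrasts. The 10 of these that belong to the study's curated pathway lists were left out, which gave the 212 genes, 0.554% of those listed.

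The leaves were of wild-type *S. viridis* ME034, a small C4 grass, and each of the 40 libraries joined 2 mid-leaf segments of 2 cm from 2 plants. Control plants stayed at 31 °C and a leaf-level light of 250 µmol photons m−2 s−1. High light (HL) plants received 900 µmol photons m−2 s−1 at 31 °C, and high temperature (HT) plants were held at 40 °C at the control light, both in chambers of their own. There were 10 conditions with 4 libraries (replicates A to D) each: ctrl_0h, before treatment, and control, HL and HT at 1, 2 and 4 h. By the study's methods 0 h fell 4 h after lights on in a day of 12 h light and 12 h dark, so that time under treatment and time of day advanced together. An effect of the chamber cannot be told apart from that of the treatment it held.

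Many leaf transcripts rise and fall each day under the joint control of light, sugars and the circadian clock, an internal timer built from transcription factors that repress one another in turn. Its outputs reach RNA processing, protein turnover, carbon use and growth. Genes that follow the day form the backdrop against which responses to a treatment are read. In mixed leaf tissue, more cells of a type and more RNA per cell cannot be told apart.

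The libraries counted tags from the 3′ end of each mRNA. The deposited TPM are estimated counts scaled to the same total in each library, with no gene length in them, and levels of different genes are compared on that scale. Total counts lay between 1422507 and 4901131 (median 3694586) in the 39 count columns used, and those of ctrl_0h between 1422507 and 3556205. In the shallowest ctrl_0h library, replicate C, 113 of the 212 genes had fewer than 10 counts. Of the tissue markers, the summed TPM of the light-harvesting LHCb genes lay between 47341 and 99695 and that of the 11 pollen-type genes between 16.6 and 92.6. The 1 seed storage gene listed lay between 275 and 715 TPM, and its part in the results was not tested. Each library carried 1 of 2 second index sequences, AK2941 or AK10751. All libraries of ctrl_2h and ctrl_4h carried AK2941, and AK10751 was carried by 1 library of ctrl_0h, 2 of ctrl_1h, 1 each of HL_1h and HL_2h, 2 each of HT_1h and HT_2h, and 3 each of HL_4h and HT_4h.

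The course of the 212 genes in control leaves was a steady climb. The median of their mean TPM was 7.13 at ctrl_0h, 10.04 at ctrl_1h, 13.1 at ctrl_2h and 20.1 at ctrl_4h. The median log2 rise was 1.27, with quartiles of 1.09 and 1.59 and a highest value of 3.50. The rise was under 1.5 in 148 genes and at least 2 in 19. In 203 of the 212 genes all 4 ctrl_4h libraries lay above all 4 ctrl_0h libraries, beside 24.3% of the 9505 genes with at least 5 TPM at ctrl_4h, a share that is given for scale only since the rule used this contrast. Libraries overlapped in the other 9, among them Sevir.9G359000 and the protein disulfide isomerase gene Sevir.1G000300. By edgeR's quasi-likelihood F-test (adjusted by Benjamini-Hochberg) all 212 were past the threshold upward in this contrast, beside 19.7% of all 14293 genes tested, and the same remark holds.

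The summed TPM of the 212 genes lay between 10587 and 11944 at ctrl_0h, between 14095 and 16341 at ctrl_1h, between 18615 and 20737 at ctrl_2h and between 28207 and 31268 at ctrl_4h. A single gene, Sevir.3G419300, held more than all the others together at ctrl_4h. Without it the sums were 4662 to 5383 at ctrl_0h and 12374 to 13974 at ctrl_4h.

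**Figure D1:**
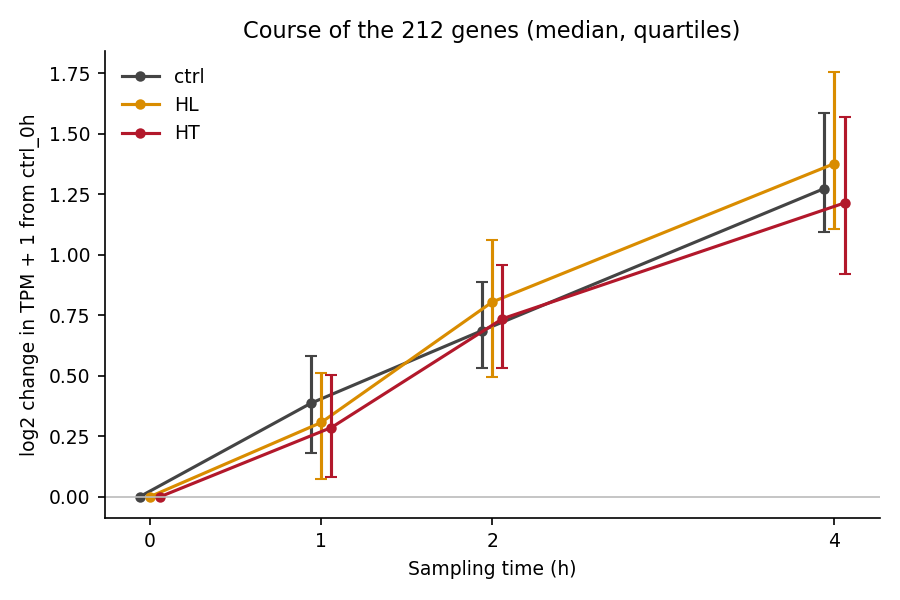
Course of the 212 genes from ctrl_0h. The horizontal axis is the sampling time in h and the vertical axis the log2 change in (TPM + 1) from ctrl_0h; points are medians over the genes and bars their quartiles, for control (grey), high light (orange) and high temperature (red). The medians at 4 h are 1.27, 1.38 and 1.21, a closeness that the rule itself set.

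By 1 h a median of 28.8% of the log2 rise had been reached, and by 2 h 51.5%. In the 1083 other risers, which met the rise and the level but passed the limit in a treatment, these medians were 28.1% and 50.3%. The mean level increased at every step in 160 genes, was lower at 1 h than at 0 h in 20, and was lower at 2 h than at 1 h in 32. None had a lower mean at 4 h than at 2 h.

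Individual genes departed from this course. Sevir.6G257000, for which no annotation was given, had reached 13.9% of its rise at 2 h, with means of 5.54 TPM at ctrl_0h, 7.58 at ctrl_2h and 45.3 at ctrl_4h. Sevir.1G174700, also without annotation, had reached 92.9% by 2 h, with means of 0.947, 8.29 and 9.46 TPM. Sevir.1G136600, annotated as a Mis12 protein of the kinetochore, had reached 94.5%. Over all 212, 24 genes had passed 75% of the rise at 2 h and 11 had not reached 25%.

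**Figure D2:**
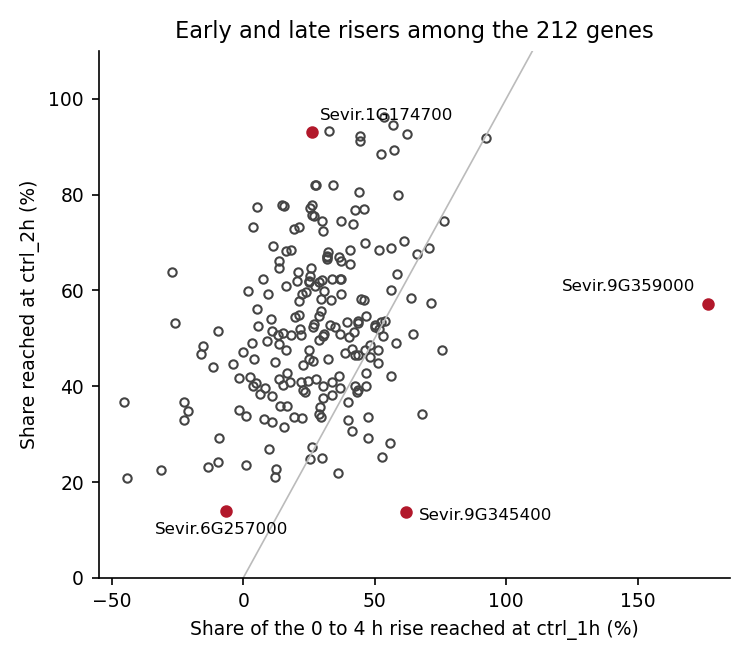
Timing of the rise among the 212 genes. Each point is a gene, the horizontal axis is the share of its log2 rise from 0 to 4 h reached at ctrl_1h (%) and the vertical axis the share reached at ctrl_2h (%), and the grey line marks equal shares. Sevir.9G359000 stands far to the right at 177% at 1 h, and Sevir.9G345400 and Sevir.6G257000 lie lowest, at 13.7% and 13.9% at 2 h.

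The step from 1 to 2 h was not used by the rule as a contrast, and was tested in each series of plants. In control leaves 13 of the 212 genes rose and 2 fell, beside 2.21% and 4.11% of all genes tested. The median log2 change was 0.29, against 0.02 over all genes tested. In high light 31 rose and 2 fell (6.14% and 5.46% of all genes), with a median of 0.30. In high temperature 33 rose and 1 fell (3.14% and 4.07% of all genes), with a median of 0.40. The fold changes were above 0 in 154, 173 and 189 of the 212 genes. The rule tied each treated level to its control at both hours, so the likeness of the 3 steps is no finding.

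The share that rose stood above that of all genes in each series and the share that fell below it, which is given as a description. Most genes were past the threshold in no series. Of the 212, 152 rose in none of the 3. An unadjusted p under 0.05, in either direction, was found for 62, 69 and 77. The share of all genes under it was not counted, so nothing about the 212 is read from these numbers. Among the 1083 other risers 12.4%, 33.98% and 19.1% rose, with medians of 0.27, 0.67 and 0.49. The shares among the 212 were 6.13%, 14.6% and 15.6%. These values stand side by side, and the difference between both sets was not tested. Only the 212 had the curated pathway genes taken out.

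**Figure D3:**
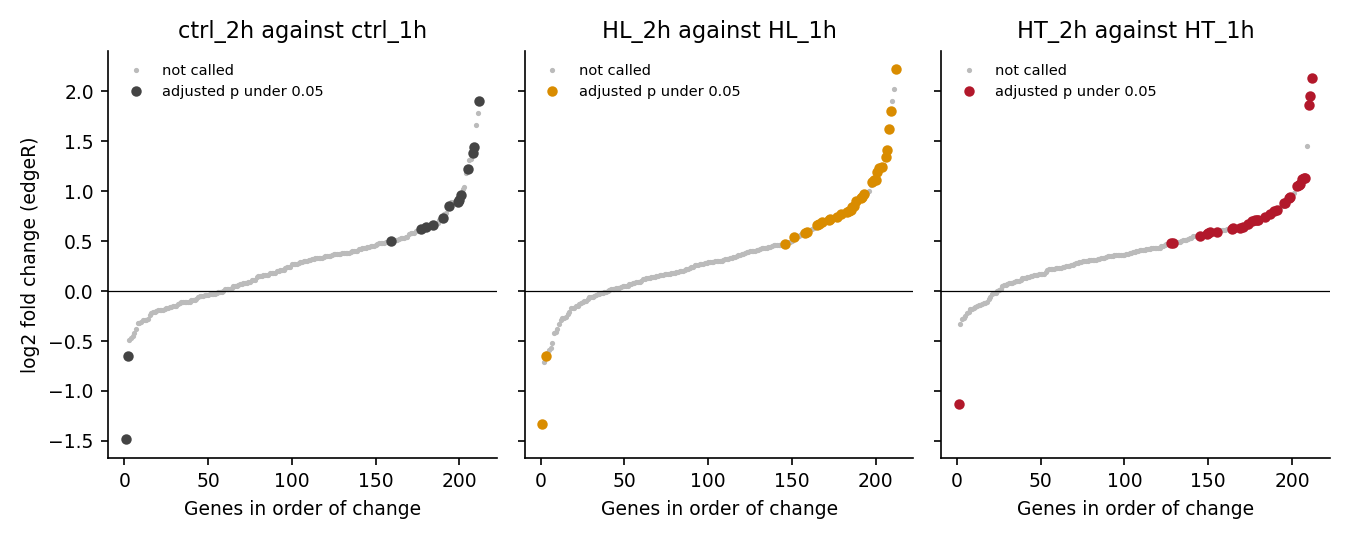
Change from 1 to 2 h in control, high light and high temperature leaves. Each point is 1 of the 212 genes in order of its change, the vertical axis is edgeR's log2 fold change between the 2 h and 1 h libraries, and coloured points have an adjusted p under 0.05. There are 15 coloured points in control, 33 in high light and 34 in high temperature, and nearly all lie above 0.

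The counts depended on single libraries. In high light the number called, 33 in all, was 11 without HL_1h replicate A, 18 without the HL_1h column of unclear letter, 15 without HL_2h replicate C and 18 without HL_2h replicate D. The shares of all genes that rose were then 2.41%, 4.54%, 3.84% and 4.47%, and those that fell 2.58%, 5.54%, 3.6% and 3.98%. Replicate letters were taken as paired in high light, while the 33 calls and the p-values given per gene come from the fit without pairing. On the 35 count columns of known letter 10 genes were called with the replicate as a block and 18 without it. Of all genes 3.31% and 4.63% then rose and 3.94% and 5.36% fell. The block set the same letter effects in all 10 conditions, also where letters did not pair, so it is no test of high light pairs alone. In high temperature the number called, 34, was 12, 19 and 22 without each of 3 HT_1h columns of unclear letter and 21 without HT_2h replicate A. Of all genes 1.58%, 1.79%, 2.63% and 2.16% then rose and 2.87%, 3.10%, 4.29% and 3.44% fell. On the 35 columns HT_1h has 1 library, and the median log2 change of the 212 in high temperature was 0.26. When counts were scaled by their totals in place of TMM (trimmed mean of M-values), 27, 63 and 47 of the 212 rose and 1, 0 and 0 fell, beside 3.03%, 11.6% and 4.72% of all genes upward and 2.64%, 2.46% and 2.56% downward.

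The genes with annotation text were 25 of 212, and 12 of the 25 lie on chromosome 1, because the annotation that could be used covers the start of that chromosome and part of the study's differentially expressed genes. Roles below were grouped after the annotations were seen. Most of the statements on the 212 thus concern genes known by identifier only.

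Of the RNA-binding and RNA-processing genes, 4 were members. Sevir.3G419300 is annotated as a glycine-rich RNA-binding protein like GRP8 (CCR1), which in *Arabidopsis* is driven by the clock and regulates its own transcript. It had 6360, 6561, 5925 and 5943 TPM in the 4 ctrl_0h libraries. At ctrl_4h the 4 libraries held 17294, 15502, 15832 and 16647 TPM. It was the most abundant of the 212 genes, and its groups at 0 and 4 h lay far apart.

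At HL_4h the same gene had 11049, 12266, 12010 and 12934 TPM, and at HT_4h 20984, 21873, 20781 and 19671. All 4 high light libraries lay below all 4 control libraries of that hour, and all 4 high temperature libraries lay above them. Yet it met the rule, with log2 ratios of −0.44 and 0.35. In edgeR's fit it was past the threshold downward in high light at 1, 2 and 4 h, by −0.37, −0.46 and −0.75. At HT_4h the change was 0.26 and not past it (edgeR's quasi-likelihood F-test, Benjamini-Hochberg adjusted p = 0.166). These values are from the contrasts that chose the gene. Lying within the rule's limit thus did not mean equal levels in this gene.

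From 1 to 2 h Sevir.3G419300 rose in high temperature (log2 fold change 0.48, SE 0.12, edgeR's quasi-likelihood F-test, Benjamini-Hochberg adjusted p = 0.00728). This call was lost without the first HT_1h column of unclear letter (adjusted p = 0.0571), and also when every gene of at least 1 count was tested. In control and high light the changes were 0.33 (adjusted p = 0.0955) and 0.24 (adjusted p = 0.24) in the same test. Sevir.9G142200 carries the same annotation and is no member, and values of both are uncertain as far as reads of such related genes were shared in counting.

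The other RNA genes were less abundant. Sevir.3G148400, the U2AF35B-like subunit of the factor that marks the 3′ splice site, had a mean of 88.9 ± 6.1 TPM at ctrl_0h and 183 ± 8.4 at ctrl_4h (SD, n = 4). Its 4 HT_4h libraries held 146, 112, 129 and 104 TPM and lay below all ctrl_4h libraries. Sevir.5G326600, a La-related RNA-binding protein, rose from 1 to 2 h in high light (log2 fold change 0.69, SE 0.21, edgeR's quasi-likelihood F-test, Benjamini-Hochberg adjusted p = 0.0274). How this call fared in each alternative was not examined. The mRNA 3′ end-processing gene Sevir.1G032800 (CLPS3) had a mean of 3.65 TPM at ctrl_0h and 8.55 at ctrl_4h, and passed the test in no series from 1 to 2 h.

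Of protease genes, 4 were members. Sevir.2G230100 is aleurain-like, of the cathepsin H class of cysteine proteases that work in the vacuole. Its ctrl_0h libraries had 54.8, 68.0, 56.9 and 55.0 TPM. Its ctrl_4h libraries had 890, 533, 462 and 445 TPM. The lowest library at 4 h was far above the highest at 0 h, and replicate A stood above the other 3.

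The rise of Sevir.2G230100 came late. At ctrl_1h it had 51.5, 82.4, 95.04 and 81.7 TPM, and at ctrl_2h 154, 137, 191 and 183. Groups at 1 and 2 h did not overlap. The log2 fold change between them was 0.96 (SE 0.19, edgeR's quasi-likelihood F-test, Benjamini-Hochberg adjusted p = 0.00123). In high light it was 0.82 (adjusted p = 0.00686) and in high temperature 0.70 (adjusted p = 0.0145). The control call held without any 1 library. That in high light was lost without HL_1h replicate A and with the replicate block, and that in high temperature without either of 2 HT_1h columns of unclear letter and without HT_2h replicate D.

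Sevir.1G130700, the ATPase CLPX that feeds proteins to a Clp protease, had ctrl_0h libraries of 24.5, 17.2, 26.0 and 22.9 TPM and ctrl_4h libraries of 81.8, 82.9, 79.2 and 80.8. It rose from 1 to 2 h in high light (log2 fold change 0.68, SE 0.19, edgeR's quasi-likelihood F-test, Benjamini-Hochberg adjusted p = 0.0137). That call was lost with the replicate block and without HL_1h replicate A, the HL_1h column of unclear letter or HL_2h replicate C. Oligopeptidase A (Sevir.1G384200) and the aminopeptidase gene Sevir.1G033200 (APM1) had log2 rises of 1.31 and 1.13, and neither passed the test from 1 to 2 h in any series.

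**Figure D4:**
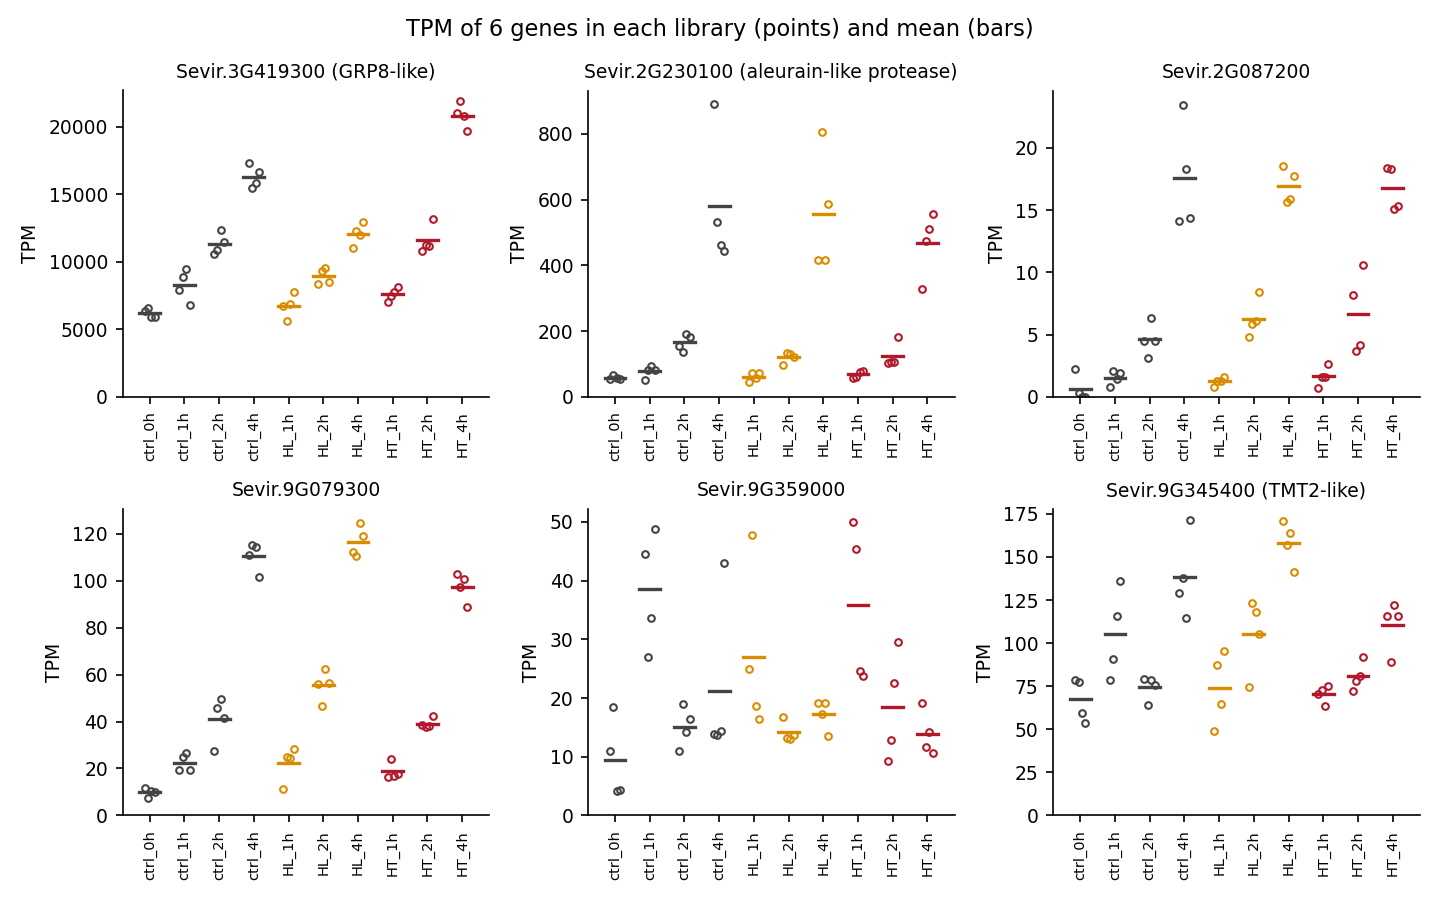
TPM of 6 of the 212 genes in each library. Each panel is a gene, the horizontal axis lists the 10 conditions and the vertical axis is TPM on a linear scale from 0; open points are the 4 libraries and bars their mean. Sevir.3G419300 lies lower at HL_4h and higher at HT_4h than at ctrl_4h, and Sevir.9G359000 is highest at 1 h.

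Folding factors numbered 3. The parvulin-type prolyl isomerase Sevir.2G210700, an enzyme that helps proteins turn at proline, had 57.4, 44.3, 56.2 and 57.8 TPM at ctrl_0h and 159, 138, 118 and 129 at ctrl_4h. It rose from 1 to 2 h in high light, close to the threshold (log2 fold change 0.54, SE 0.18, edgeR's quasi-likelihood F-test, Benjamini-Hochberg adjusted p = 0.0491). That call was not followed through each alternative. Sevir.1G004600 is like BAG7, a co-chaperone of the endoplasmic reticulum in *Arabidopsis*, and Sevir.1G000300 is a protein disulfide isomerase, which forms disulfide bonds there. They had log2 rises of 1.20 and 1.01 and passed the test from 1 to 2 h in no series.

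Metabolic enzymes numbered 7, with log2 rises from 1.03 to 3.00. Sevir.9G266500 encodes GDP-mannose 3,5-epimerase, an enzyme of ascorbate and cell wall sugar synthesis. It had 35.4, 36.8, 38.0 and 26.2 TPM at ctrl_0h, and 71.7, 83.1, 84.6 and 74.2 at ctrl_4h. From 1 to 2 h it rose in high temperature (log2 fold change 0.63, SE 0.17, edgeR's quasi-likelihood F-test, Benjamini-Hochberg adjusted p = 0.0154). Control leaves gave 0.37 (adjusted p = 0.194), and the steps differed by a log2 of 0.26 (SE 0.24, adjusted p = 0.63 in the same test). The gene was below control at HT_1h (−0.51, adjusted p = 0.0465) and HL_2h (−0.60, adjusted p = 0.00446), in contrasts that chose it. Whether the high temperature call from 1 to 2 h held in each alternative was not examined.

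2-isopropylmalate synthase (Sevir.8G028400), which starts leucine synthesis, also rose from 1 to 2 h in high temperature (log2 fold change 0.89, SE 0.25, edgeR's quasi-likelihood F-test, Benjamini-Hochberg adjusted p = 0.0207). This call, too, was not followed through each alternative. The methyltransferase gene Sevir.1G158100 had under 2 TPM in every ctrl_0h library and 16.4, 15.7, 13.3 and 12.6 at ctrl_4h. At 2 h, with a mean of 2.21 TPM, it had reached 24.3% of its log2 rise. The cysteine desulfurase SUFS (Sevir.1G132950), which supplies sulfur for iron-sulfur clusters in plastids, went from 22.6 ± 3.8 to 50.8 ± 7.3 TPM (SD, n = 4). Its 4 HT_4h libraries, 33.3, 34.3, 33.5 and 37.0 TPM, were all below its ctrl_4h libraries. The acyltransferase gene Sevir.2G217100, the cytokinin-type glucosyltransferase gene Sevir.1G211800 (UGT85A1) and the thioesterase gene Sevir.2G132400 had log2 rises of 1.34, 1.03 and 1.72.

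Among sugar genes, Sevir.9G345400 is like TMT2, a carrier that loads sugars into the vacuole. It had 78.4, 90.9, 116 and 136 TPM at ctrl_1h, and 79.4, 64.1, 78.4 and 75.6 at ctrl_2h. Only replicate A of ctrl_1h lay within the range of ctrl_2h. The gene fell in control leaves (log2 fold change −0.65, SE 0.18, edgeR's quasi-likelihood F-test, Benjamini-Hochberg adjusted p = 0.0241). Replicates B and D of ctrl_1h carry AK10751. The call was lost with the index as a covariate, with total-count scaling, with limma on TPM, and without ctrl_1h replicate D or ctrl_2h replicate B or D.

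In high light the step of Sevir.9G345400 was 0.42 (adjusted p = 0.169), and it differed from that of control leaves by a log2 of 1.06 (SE 0.27, edgeR's quasi-likelihood F-test, Benjamini-Hochberg adjusted p = 0.029). The unannotated Sevir.2G387300, named for this difference, had 5.78, 4.41, 4.32 and 4.24 TPM at ctrl_1h and 9.52, 5.71, 6.65 and 10.5 at ctrl_2h. In high light it had 6.16, 9.04, 6.58 and 7.11 TPM at 1 h and 4.31, 6.08, 7.52 and 5.95 at 2 h, with overlap. It differed the other way, by −1.16 (SE 0.32, adjusted p = 0.0462 in the same test). These were the only 2 of the 212 genes past that threshold, beside 1.76% of all genes. For high temperature none was, beside 2.34% of all genes. There 22 of the 212 had an unadjusted p under 0.05. The share of all genes under it was not counted, so nothing is read from this number. The rule had bounded the ratio of treatment to control at both hours, so these counts and p-values are descriptions. The SWEETIE-like gene Sevir.9G583700 had a mean of 16.7 TPM at ctrl_0h and 34.7 at ctrl_4h and passed the test from 1 to 2 h in no series.

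The other annotated genes encode a ribosomal protein of the L10A type (Sevir.2G138800), a serine/threonine kinase (Sevir.4G208200), a YbaB-type DNA-binding protein (Sevir.1G062100), a protein of unknown function (Sevir.1G338200) and the Mis12 protein. Their log2 rises lay between 1.20 and 1.84, and none passed the test from 1 to 2 h.

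Several of the steepest rises belonged to genes with no annotation. Sevir.2G087200 rose most, with 2.25, 0.325, 0 and 0 TPM at ctrl_0h, which are 8, 1, 0 and 0 counts, and 14.2, 23.4, 18.3 and 14.4 TPM at ctrl_4h. Sevir.9G079300 went from 11.5, 7.49, 10.5 and 9.81 TPM to 111, 115, 114 and 102. Sevir.5G262400 went from 6.75, 7.81, 6.33 and 7.08 TPM to 95.5, 69.4, 63.5 and 69.7. In each of them both groups were far apart.

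These 3 genes were also among the 5 that rose from 1 to 2 h in all 3 series, with Sevir.2G230100 and Sevir.1G360500. The last was singled out after its values were seen. With the replicate block the high light calls of Sevir.2G230100, Sevir.5G262400 and Sevir.1G360500 were lost, and so were they without HL_1h replicate A, while those of the other 2 genes held under all 16 alternatives. Sevir.9G079300 had log2 fold changes of 0.74 in control (SE 0.19, adjusted p = 0.0118), 1.23 in high light (SE 0.20, adjusted p = 6.24e-05) and 0.94 in high temperature (SE 0.19, adjusted p = 0.000822) by edgeR's quasi-likelihood F-test (adjusted by Benjamini-Hochberg). The control call was lost without ctrl_2h replicate C (adjusted p = 0.0539). Sevir.2G087200 had 1.44 in control (adjusted p = 0.0358), from 3, 7, 5 and 5 counts at ctrl_1h to 18, 12, 22 and 16 at ctrl_2h, and its control call was lost without any 1 of 5 of the 8 libraries. Its changes in high light and high temperature were 2.22 (adjusted p = 0.00128) and 1.87 (adjusted p = 0.0019).

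Sevir.1G360500 had 25.6, 23.4, 24.6 and 25.6 TPM at ctrl_0h, 31.9, 32.6, 33.7 and 32.7 at ctrl_1h, 54.1, 55.0, 58.7 and 56.3 at ctrl_2h, and 70.1, 72.0, 60.6 and 64.6 at ctrl_4h. No neighbouring pair of these groups overlapped. From 1 to 2 h the log2 fold change was 0.64 in control leaves (SE 0.14, edgeR's quasi-likelihood F-test, Benjamini-Hochberg adjusted p = 0.00448), a call that held without any 1 library. In high light it was 0.47 (adjusted p = 0.0417 in the same test). That call was lost in 8 of 16 alternatives, among them the replicate block (adjusted p = 0.225) and the fits without HL_1h replicate A, the HL_1h column of unclear letter, HL_2h replicate C or HL_2h replicate D.

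In control leaves the other large rises from 1 to 2 h were of Sevir.1G174700 (log2 fold change 1.90, SE 0.44, edgeR's quasi-likelihood F-test, Benjamini-Hochberg adjusted p = 0.00585), Sevir.8G027201 (1.38, SE 0.26, adjusted p = 0.000925) and Sevir.2G380300 (1.23, SE 0.27, adjusted p = 0.00357). All 3 lack annotation, and these calls held under each of the 16 alternatives run for this contrast. Sevir.8G027201 had 10.2, 17.8, 10.1 and 7.33 TPM at ctrl_1h and 34.9, 28.9, 32.8 and 32.9 at ctrl_2h, with no overlap.

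Sevir.9G359000 had the reverse course, and its log2 rise of 1.08 by the rule was 0.51 without ctrl_4h replicate D. It had 11.0, 18.5, 4.22 and 4.36 TPM at ctrl_0h, 44.6, 27.1, 33.7 and 48.8 at ctrl_1h, 11.0, 19.0, 14.2 and 16.4 at ctrl_2h, and 13.9, 13.8, 14.4 and 42.9 at ctrl_4h. The ctrl_1h libraries lay above all those of 0 and 2 h, and the ctrl_4h group overlapped ctrl_0h but for replicate D.

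From 1 to 2 h Sevir.9G359000 fell in control (log2 fold change −1.48, SE 0.37, edgeR's quasi-likelihood F-test, Benjamini-Hochberg adjusted p = 0.0107), in high light (−1.33, SE 0.39, adjusted p = 0.0219) and in high temperature (−1.13, SE 0.36, adjusted p = 0.0491). The control call held without any 1 library. That in high light was lost in 4 of 7 such fits and that in high temperature in 4 of 8. Both of these were also lost with total-count scaling and in every fit with limma. The control call was lost in limma with the second index as a covariate. Sevir.9G359000 was the only gene of the 212 to fall in all 3.

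The most abundant members after Sevir.3G419300 were Sevir.8G045500 and Sevir.5G034900, neither annotated. Sevir.5G034900 had 291, 360, 347 and 333 TPM at ctrl_0h and 1156, 1071, 1097 and 1097 at ctrl_4h. Sevir.8G045500 had 865, 1065, 835 and 807 TPM at ctrl_0h and 1616, 1948, 1809 and 2338 at ctrl_4h, with 1128, 1581, 1310 and 2374 already at ctrl_1h. Its ctrl_1h group reached into the range of ctrl_4h, and its log2 change from 1 to 2 h was −0.47 (edgeR's quasi-likelihood F-test, Benjamini-Hochberg adjusted p = 0.185). At ctrl_4h 26 of the 212 genes had at least 100 TPM and 44 had under 10.

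The 212 genes held 1 of 13 annotated genes of the circadian clock and light time-keeping list, Sevir.3G419300. Between ctrl_0h and ctrl_4h 3 of the 13 rose and 6 fell, with a median log2 fold change of −0.25. Of all genes tested 19.7% rose, with a median of 0.04, and the share that fell is not given here. Of the 13, 3 entered by the name of a protein family only and are annotated as bHLH genes like ILR3 or PYE (Sevir.1G117500, Sevir.3G225600 and Sevir.9G389000), and the first 2 of them are among the 6 that fell. Sevir.1G064400, Sevir.6G104600 and Sevir.9G329600, which also fell, are annotated as CONSTANS-like 5, as are Sevir.1G232600 and Sevir.4G202100. The remaining gene that fell is the RVE2-like Sevir.4G300400 (log2 fold change −2.20). The counts thus describe this list, not the clock itself. From ctrl_1h to ctrl_2h 1 of the 13 rose and 2 fell, beside 2.21% and 4.11% of all genes. Another clock gene that rose, the pseudo-response regulator PRR7 (Sevir.2G456400, a repressor of morning genes), had a log2 rise of 1.18 and passed the limit downward, with log2 ratios of −1.14, −1.24 and −0.91 in high light at 1, 2 and 4 h. Sevir.9G142200 had a log2 rise of 3.45 and log2 ratios of −0.70 at HL_1h and 0.82 at HT_1h.

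Each of the nuclear RNA processing, amino acid synthesis, phenylpropanoid, endoplasmic reticulum folding, kinase and phosphatase, and hormone lists held 1 member. The other 12 lists held none. The ribosomal protein lists were searched by other wording than the annotation of Sevir.2G138800 has, so that this ribosomal protein gene is in none of them. Of the 44 cytosolic ribosomal protein genes tested 25 rose between ctrl_0h and ctrl_4h and 1 fell, and of the 183 transcription factor genes 28 rose and 51 fell. Of all genes tested 19.7% rose in this contrast, and the share that fell is not given here. The lists cover annotated genes only, and members of the study's curated pathways had been left out. Annotation covers the start of chromosome 1 and part of the study's differentially expressed genes. The shares of all genes tested are therefore no like background for any of the lists.

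How close the 212 genes stayed to their controls depended on the scaling. The limit was set on TPM, and the largest of the 6 absolute log2 ratios had a median of 0.48, was under 0.3 in 19 genes and was at least 0.5 in 87. Just inside the limit lay Sevir.5G262400 (0.5793) and Sevir.9G190800 (0.5782), and just outside it Sevir.6G107500 (0.5801) and Sevir.1G242200 (0.5805). At the limits of the rise and the level the nearest members were Sevir.1G167100 (log2 1.00) and Sevir.3G069500 (5.06 TPM), and the nearest genes outside Sevir.1G296300 (0.9984) and Sevir.2G251500 (4.97 TPM).

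On TPM the median log2 ratio over the 14726 genes with a mean of at least 1 TPM was 0.33 at HL_4h and 0.10 at HL_2h, and on TMM-scaled TPM it was 0.05 and 0.01. The median of the 212 genes at HL_4h was 0.08 on TPM, with 92 genes below control, and −0.22 on TMM-scaled TPM, with 167 below. At HT_4h it was −0.13 on TPM, with 130 below, and −0.22 with 157 below. With TMM-scaled TPM 154 of the 212 remained within the limit in all 6 contrasts, 33 passed it at HL_4h and 17 at HT_4h, while 198 kept a log2 rise of at least 1.

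**Figure D5:**
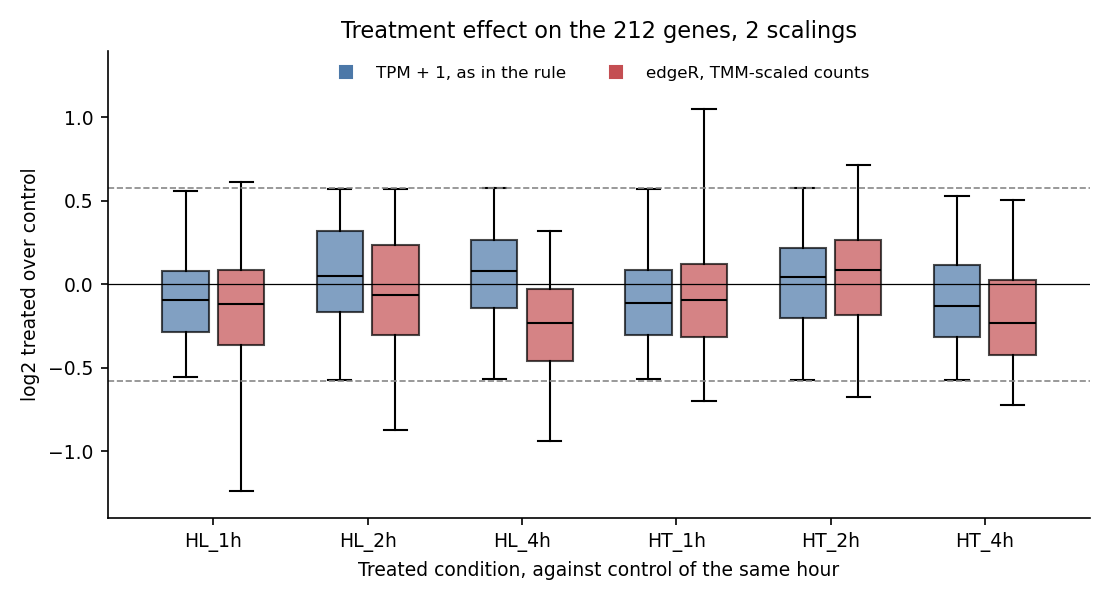
Treated over control in the 212 genes under both scalings. The horizontal axis lists the 6 treated conditions and the vertical axis is the log2 ratio to the control of the same hour; boxes are quartiles with the median as a line, whiskers reach the lowest and highest gene, blue is (TPM + 1) as in the rule and red edgeR's fit on TMM-scaled counts. Dashed lines mark 0.58, which bounds blue by construction, and the red boxes at HL_4h and HT_4h have their medians at −0.23.

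In edgeR's fit 59 of the 212 genes were past the threshold in at least 1 treatment contrast, and 153 in none. Since the rule used these contrasts, the counts are descriptions. High light gave 6 down and 0 up at 1 h (9.08% and 9.29% of all genes), 17 down and 1 up at 2 h (13.9% and 16.5%) and 36 down and 0 up at 4 h (12.6% and 13.5%). High temperature gave 3 down and 2 up at 1 h (5.41% and 5.07%), 0 down and 5 up at 2 h (5.37% and 5.38%) and 9 down and 0 up at 4 h (5.60% and 4.22%). Of the 79 calls, 71 were downward.

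Being within the limit does not show that a gene did not respond. The 95% interval of the fitted log2 ratio lay within 0.58 of 0 in all 6 contrasts for 2 of the 212 genes, Sevir.1G360500 and Sevir.2G265800. For Sevir.2G265800 the intervals reached from −0.44 to 0.28 at HL_1h and from −0.51 to 0.11 at HT_4h. Both were picked out for this. For every other gene at least 1 interval reached past the limit.

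The second index moved with time in these comparisons. With the ctrl_0h libraries of AK2941 alone, 196 of the 212 genes kept a log2 rise of at least 1, with a median of 1.29 over the 212. With AK2941 libraries alone in every group, 133 of the 212 lay within the limit in all 6 treatment contrasts, 189 at HL_4h and 177 at HT_4h, where 1 such library is left per treatment. The spread between libraries was widest early, with a median coefficient of variation of 28.2% at ctrl_0h and 17.0% at ctrl_4h.

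By the chromosome in their identifiers the 212 genes lay on all 9 chromosomes. Chromosome 9 held 43 of them (20.3%, beside 19.2% of the genes with a mean of at least 1 TPM), and chromosome 5 held 22 (10.4%, beside 14.6%). Promoter and protein sequences of these genes were not used here.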

How the data were processed

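The authors made QuantSeq 3′ libraries, trimmed reads with Trim Galore 0.6.2, estimated abundances with Salmon 1.1.0 against the version 2 transcript set of *S. viridis*, and took gene totals with tximport. The deposited table holds the authors' estimated counts per gene, as whole numbers after rounding. A file was also deposited for every library with values that the authors call TPM, and by these values they are CPM, without gene length.

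Of 40 count columns, 39 were used, and 1 was not because its header and values named different groups. Of the 39, 4 gave the condition but not the replicate letter. HL_1h thus had 3 libraries in count tests.

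Members and gene lists were chosen with earlier results of these data known. Genes that reached 10 counts in 4 or more libraries were fitted in 1 model over the 10 conditions with edgeR 4.0.16 in R 4.3.3 (TMM, glmQLFit, glmQLFTest), and p-values were adjusted over all 14293 genes at a threshold of 0.05. Members were tested from 1 to 2 h, and for the difference of that step between treatment and control. The rule had bounded both ratios in that difference, so its calls are descriptions. DESeq2 1.42.0, limma 3.58.1 on log2(TPM + 1), other scalings, filters and thresholds, the second index as a covariate and each library left out were alternatives. In simulated counts the test recovered 39%, 23% and 40% of log2 changes of 1 from 1 to 2 h in control, high light and high temperature, and 80%, 85% and 76% of changes of 2.

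Replicate letters of 1 and 2 h were checked for pairing by the correlation of deviations from the group means. In high light these were 0.31, 0.14, 0.11 and 0.25 for A to D, and each was above 0.1. Replicate C of HL_2h correlated best with B of HL_1h, and replicate D carried AK10751 at both hours. In control the correlations lay between −0.16 and 0.01 and in high temperature between −0.14 and −0.01, so letters were taken as paired in high light only.

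Named genes were the 12 largest rises, the 8 highest levels at ctrl_4h, the 5 largest rises and falls from ctrl_1h to ctrl_2h among genes past the test, members of the fixed lists (up to 4 of each, all of the clock list), and genes next to each limit of the rule. Other annotated members were added after their annotations were seen. Gene names came from the study's annotation tables, of which shortened copies were used, and 3762 genes had annotation text. Columns of the authors' fold changes and p-values were not used.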

Additional observations from a re-analysis of the deposited data

Results flagged for a closer look

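Of 209 groups of 4 libraries tested, for the genes given by library, their sum and the total counts, 13 held a library whose gap to the next, divided by the range, passed Dixon's critical value for 4 libraries. Chance alone gives about 1 in 20 groups. At ctrl_0h these were the aleurain-like Sevir.2G230100, with 68.0 TPM against 54.8 to 56.9 in the others, and Sevir.2G087200, with 2.25 TPM against 0 to 0.325. The prolyl isomerase gene Sevir.2G210700 had a low library of 44.3 TPM there, against 56.2 to 57.8. At ctrl_1h SUFS (Sevir.1G132950) had a low library of 23.3 TPM against 27.7 to 28.3, and Sevir.2G387300 a high one of 5.78 TPM against 4.24 to 4.41. At ctrl_2h oligopeptidase A (Sevir.1G384200) had 65.1 TPM against 55.8 to 56.9, and at ctrl_4h Sevir.9G359000 had 42.9 TPM against 13.8 to 14.4. In high light Sevir.5G262400 had a low library of 15.5 TPM against 19.4 to 19.6 at 1 h, and Sevir.9G359000 a high one of 16.7 TPM against 13.1 to 13.6 at 2 h. In high temperature at 1 h Sevir.9G079300 had 24.0 TPM against 16.5 to 17.5 and Sevir.1G360500 had 48.9 TPM against 31.3 to 33.5. At HT_2h Sevir.2G230100 had 182 TPM against 105 to 107, and Sevir.9G079300 had 42.2 TPM against 37.7 to 38.3.

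The change from 1 to 2 h differed between high light and control in 2 of the 212 genes. It was higher in high light by a log2 of 1.06 in the TMT2-like Sevir.9G345400 (SE 0.27, edgeR's quasi-likelihood F-test, adjusted p = 0.029) and lower by a log2 of −1.16 in Sevir.2G387300 (SE 0.32, adjusted p = 0.0462). Since the rule had bounded the ratio of treatment to control at both hours, these values are descriptions.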

How the results depend on the processing

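The number of genes met by the rule was 212. It was 19 with a stress limit of 0.3 and 668 with a limit of 1, and lay between 179 and 237 when each of the 40 libraries was left out. With TPM divided by TMM factors it was 175, of which 143 were shared with the 212, and with a pseudocount of 5 it was 200, of which 102 were shared.

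The number called from 1 to 2 h was 15 in control, 33 in high light and 34 in high temperature. With total counts in place of TMM the first 2 were 28 and 63, and the medians of the 3 steps 0.42, 0.54 and 0.52. With limma on log2(TPM + 1) the counts in control and high light were 29 and 66, and 30 and 70 with the second index as a covariate, where the control median was 0.43. Of all genes 13.3% and 14.1% then rose in high light, against 6.14%, and 2.19% and 2.4% fell. In control 3.32% and 3.04% of all genes rose and 1.97% and 1.68% fell. The high light median in all fits with limma was 0.50. With every gene of at least 1 count, high light gave 21, beside 2.89% of all genes upward and 2.74% downward.

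The replicate block in limma gave 28 in control and 67 in high light. Of all genes 3.16% and 13% then rose and 1.9% and 2.13% fell. On the 35 columns of known letter high light gave 18 without and 10 with the replicate block, and 18 with the index as a covariate. With the index 4.6% of all genes rose and 5.55% fell. In these 3 fits HT_1h has 1 library, which is assumed to vary like the others. The high temperature medians were 0.26 without the block, 0.30 with it and 0.27 with the index. These fits were chosen after seeing the data, but for the index covariate on counts. In control and high temperature the letters did not pair. DESeq2 gave 21 (19 up and 2 down) in control and 36 in each treatment. Of all genes 2.64%, 6.47% and 3.54% then rose in control, high light and high temperature, and 5.02%, 6.58% and 4.9% fell.

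With 1 library left out the counts lay between 11 and 18 for control leaves, 11 and 36 for high light, and 12 and 34 for high temperature, and the medians between 0.22 and 0.33, 0.26 and 0.35, and 0.36 and 0.42. Of all genes 1.41% to 2.81%, 2.41% to 6.54% and 1.58% to 2.72% then rose. Those that fell were 2.58% to 4.89%, 2.58% to 5.54% and 2.86% to 4.56%. From 1 to 2 h the medians kept their direction, and so did the calls of those genes that were followed through the alternatives. Other called genes were not followed singly. The median of the 212 genes at HL_4h turned from 0.08 on TPM to −0.22 on TMM-scaled TPM. Fits on reads recovered from TPM were not run, since not all libraries gave whole reads. Depth limits ctrl_0h most, where 55 of the 212 genes had a mean under 10 counts. P-values and intervals of fold changes measure the spread between these libraries. By the study's methods these were biological replicates of 2 plants each, and their spread includes technical variation.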
